A study of Mus musculus with 32 samples.

Results

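The genes described here encode parts and regulators of the pre-mRNA splicing machinery in mouse hippocampus. They cover heterogeneous nuclear ribonucleoproteins (hnRNPs), SR proteins, the U2AF factors and the SF3A and SF3B subunits. They also cover the PRPF proteins and the Snrp proteins of the small nuclear ribonucleoproteins. They were taken by gene symbol, as all probes whose symbol began with Hnrnp, Sf3a, Sf3b, Snrp or U2af, or with Srsf or Prpf followed by a number. The rule left out 2 symbols. A probe also had to be detected, with a detection p-value under 0.05, on at least 3 arrays. This gave 86 probes of 52 genes, out of 14745 probes and 10308 named genes that met the same detection filter. By symbol alone there were 109 probes of 58 genes, so 6 genes had no probe that passed: Hnrnpd, Hnrnpr, Prpf4b, Sf3a2, Snrpb2 and Snrpe. The rule itself uses no measured difference, but the members were chosen with earlier results of these data known.

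Total RNA of the hippocampus, the brain region needed to form new memories, was measured on Illumina bead arrays, with 1 array per sample and 32 arrays in all. The mice were of the C57BL/6J background and ate chow from weaning on, and they were either 1 month old (young) or 21 to 23 months old (old). There were 4 young and 6 old wild type arrays, 3 young and 6 old arrays each of ASC -/- and of CIAS -/- mice, and 4 young arrays of CASP11 -/- mice. ASC is the adaptor of the inflammasome, a complex that activates interleukin-1 cytokines, CIAS is its sensor Nlrp3, and CASP11 is an inflammatory caspase. For the old ASC -/- group the titles read 23 months, while another label reads 21 months for 5 of its samples. Separate animals are not stated in the labels, so p-values measure the spread between samples, which may be technical.

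Splicing begins when the U1 particle binds the start of an intron and U2AF and the SF3 subunits of the U2 particle bind near its end. The U4, U5 and U6 particles, which hold several PRPF proteins, then join and the catalytic centre forms around Prpf8. SR proteins mostly favour the use of an exon and hnRNPs often oppose it, and neurons rely on this balance for their many transcript isoforms.

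The number of detected probes ran from 13172 to 13900 per array and the median signal from 56.2 to 79. One array stood apart in its neuronal markers: old wild type replicate 6 had a mean log2 signal of 11.49 over striatal neuron markers, against 7.11 to 7.33 on the 5 other old wild type arrays. Its dentate granule neuron markers stood at 6.98, against 9.86 to 10.22. On that array the deviations from the group means had an SD of 0.196 over the 86 splicing probes and 0.467 over all probes. Their median over the 86 probes was 0.08, the highest of the 32 arrays, with 0.06 on the next. All 19 calls of a splicing probe held when that array was left out, and the calls gained without it are given with each comparison. The 86 probes deviated more on old ASC -/- replicate 4 (SD 0.2505), old wild type replicate 1 (0.2356) and old CIAS -/- replicate 5 (0.215). Choroid plexus markers varied widely within most groups. Their list means were 9.02 to 9.48 in young and 6.90 to 9.92 in old wild type, and 7.26 to 9.85 in young and 6.91 to 10.32 in old ASC -/-. They were 8.25 to 10.05 in young and 6.24 to 9.72 in old CIAS -/-, and 8.10 to 9.87 in young CASP11 -/-. The Y-linked Eif2s3y was low on 7 arrays: 2 of 4 young wild type, 1 of 6 old wild type, 2 of 3 young ASC -/- and 2 of 4 young CASP11 -/-. It read 4.33 to 4.66 on these and 9.07 or more on the others. In wild type and ASC -/- the low arrays were more frequent among the young, so age and this signal are partly confounded there. It was high on all CIAS -/- arrays. Comparisons of CIAS -/- with wild type, and of their age effects, are thus partly confounded with it too. Eif2s3y entered an alternative fit as a covariate. Of 8 microglia markers, all detected on 32 arrays, 5 were higher in old than in young wild type and 5 were lower in each old knockout than in old wild type. Their mean log2 signal was 7.56 to 7.71 in young wild type, 7.98 to 8.28 in old wild type, 7.72 to 7.95 in old ASC -/- and 7.68 to 7.88 in old CIAS -/-. Of 8 markers of mature oligodendrocytes, also detected on all arrays, 4 were lower in old CIAS -/- (mean 9.68 to 10.42) than in old wild type (10.20 to 11.21). The upper end is replicate 6, and the 5 other old wild type arrays read 10.20 to 10.66. With age in wild type, 2 of 6 markers of immature neurons and 2 of 3 of proliferating cells were lower. Of 6 markers of newly formed oligodendrocytes and precursors, 1 was lower, Gpr17 at -1.50. Pdgfra and Cspg4 of that list stood at -0.11 and 0.05 without a call. In young wild type the means of these 3 lists were 6.24 to 6.43, 6.17 to 6.41 and 7.20 to 7.42. In old wild type they were 5.83 to 6.11, 5.67 to 5.86 and 6.71 to 7.04. Of 7 astrocyte markers, 1 was higher, with list means of 9.42 to 9.58 in young and 9.39 to 9.75 in old wild type. Hapln2 of mature oligodendrocytes was higher with age in wild type, by 1.16. Syt1 of neurons was lower than in wild type in old ASC -/- (-0.35), old CIAS -/- (-0.48) and young CASP11 -/- (-0.47). In young CASP11 -/- Cx3cr1 of microglia was also lower (-1.07), and Dpysl3 of immature neurons was higher (0.60). The part of these shifts in the results on splicing genes was not tested. In bulk tissue, fewer cells of a type and less RNA per cell cannot be told apart.

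The splicing probes were brighter than most: their mean log2 signal had a median of 9.01, against 7.21 over all probes that passed the filter. Of the 86 probes, 77 were detected on all 32 arrays, as were 11529 of all 14745 probes. All values below are log2 signals after background correction and quantile normalization, and a difference is old minus young or knockout minus wild type on that scale. The range of the 7 group means of a probe had a median of 0.213 over the 86 probes and 0.248 over all probes. The SD within groups had a median of 0.125 over the 86 probes and 0.150 over all. Spread depended on signal: the median range was 0.2835 over 26 splicing probes with a mean under 7 and 0.1787 over the 60 others. Splicing probes and all probes were not matched for signal, so their spreads do not show that splicing genes are steadier. The range exceeded 0.5 for 6 probes, or 6.98%, against 10.4% of all probes. These were probes of Prpf40b, Hnrnpa1, Prpf8, Srsf5, Hnrnpdl and Hnrnph2. Over 11 comparisons, 18 probes of 17 genes were called, that is, had an adjusted p under 0.05 in limma, and 68 probes were called in none. The share of all probes called in any of the 11 was not counted, and the share in each comparison is given below. No call fell on the 7 Sm or 2 U2AF probes, too few to describe these families by. Without old wild type replicate 6, a probe of Snrpd1, of the Sm ring, was called.

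**Figure D1:**
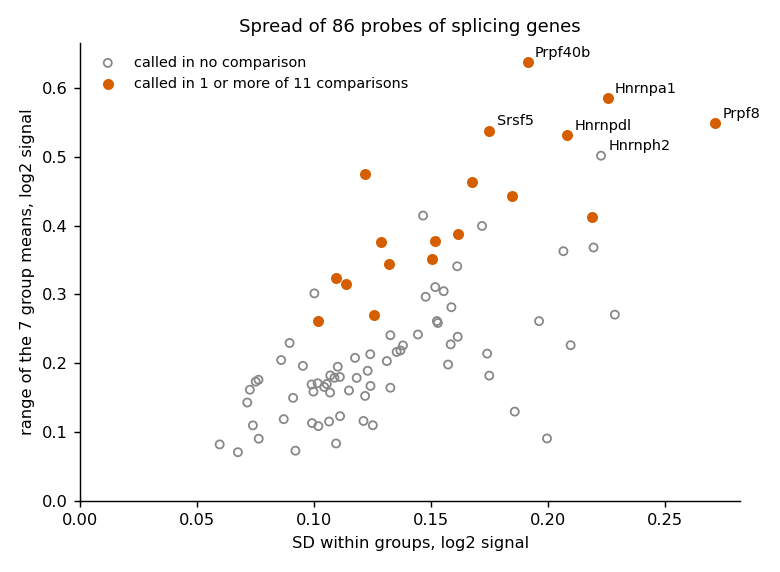
Spread of the 86 probes of splicing genes. Each point is a probe, with the SD within groups on the x axis and the range of its 7 group means on the y axis (both log2 signal); filled points were called in at least 1 of 11 comparisons. The median range was 0.213, and the 6 named probes exceeded 0.5.

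The first comparison asked which splicing genes differ with age in wild type hippocampus. Few did, and the gene that moved most was Srsf5, an SR protein, which rose on both of its probes. Of the 86 probes, 3 were higher and 1 was lower in old mice, or 4.65%, against 5.25% of all probes tested (2.77% higher and 2.48% lower). The median difference was 0.01 over the 86 probes and -0.01 over all probes. For 84 of the 86 probes the 95% interval of the difference lay within 1.5-fold, against 90% of all probes. Old and young arrays did not overlap for 5 probes, against 5.97% of all probes.

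Srsf5 lies on chromosome 12 (chr12:80945495-80950507, in the RefSeq GRCm38.p6 build used for all positions here). Its probe ILMN_2772274 read 9.84, 9.94, 10.02 and 10.01 on the 4 young wild type arrays. The 6 old wild type arrays lay between 10.22 and 10.69, with a median of 10.51, so every old array exceeded every young one. The means were 9.96 ± 0.08 (SD, n = 4) and 10.49 ± 0.15 (SD, n = 6). The difference was 0.54 (SE 0.11), a 1.45-fold rise, with an adjusted p of 0.00364 in limma. It was 0.59 (adjusted p 0.00124, limma) without old wild type replicate 6, which was the lowest old array. The second probe, ILMN_3148662, read 10.73, 10.70, 10.85 and 10.62 in young wild type and 10.90 to 11.12, median 11.08, in old wild type. It rose by 0.31 (SE 0.08, adjusted p 0.0138, limma), again with no overlap. Its adjusted p was 0.0593 in limma when young wild type replicate 4 was left out.

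In the knockouts Srsf5 did not pass the test with age. In ASC -/- mice the probe ILMN_2772274 read 10.02, 10.26 and 10.11 when young and 10.15 to 10.36, median 10.27, when old, a difference of 0.14 (SE 0.12, adjusted p 0.885, limma). In CIAS -/- mice it read 9.96, 10.27 and 10.31 when young and 9.56 to 10.46, median 10.19, when old, a difference of -0.05 (SE 0.12, adjusted p 0.919, limma). Young and old arrays overlapped in both knockouts. The age effect in CIAS -/- minus that in wild type was -0.59 (SE 0.16), with an adjusted p of 0.0944 in limma, and it passed at -0.64 (adjusted p 0.0416, limma) without old wild type replicate 6. For ASC -/- the same difference of age effects was -0.40 (SE 0.16, adjusted p 0.425, limma). A difference of the Srsf5 age effect between genotypes was thus not shown with all arrays. Young CASP11 -/- arrays read 10.30, 10.33, 10.15 and 10.28, all above the 4 young wild type arrays, but with an adjusted p of 0.189 in limma.

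**Figure D2:**
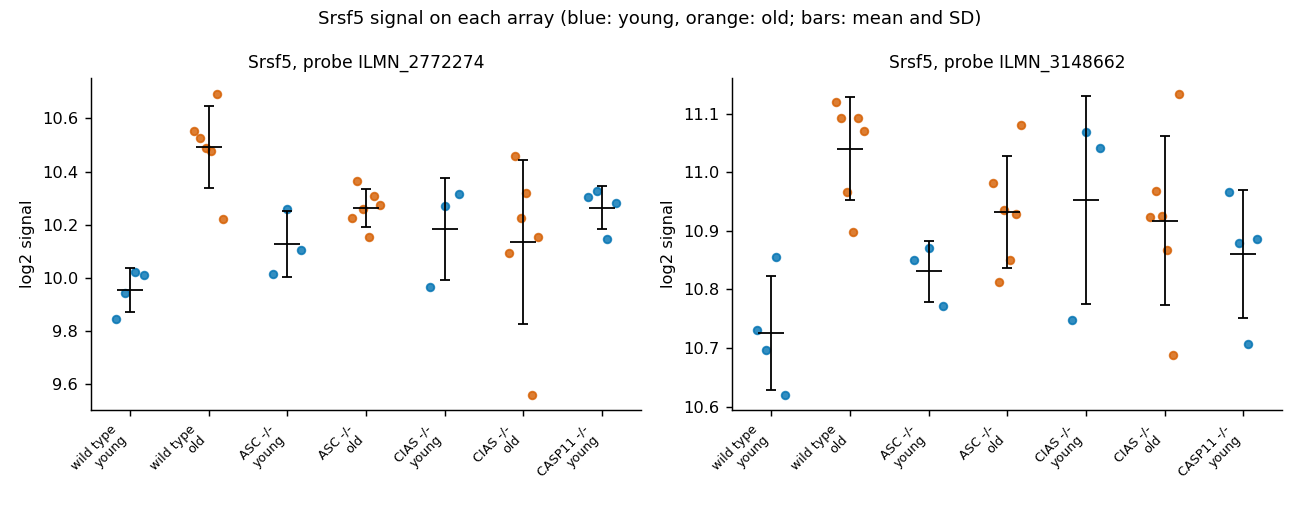
Srsf5 log2 signal on each of 32 arrays for its 2 probes. Each point is an array, blue for young and orange for old, with the group mean and SD as bars. The 6 old wild type arrays lie above the 4 young wild type arrays on both probes, and the young and old knockout arrays overlap.

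The stretch upstream of Srsf5 is shown because it is the gene with the clearest difference with age. The 250 bases before its annotated start (RefSeq, GRCm38.p6, chr12:80945249-80945498, plus strand), of which the last 4 lie in the gene record, read as follows, with GC boxes (GGGCGG) and ETS cores (CCGGAA) on either strand in capitals. The last GC box and the ETS core that follows it share a base.
Srsf5: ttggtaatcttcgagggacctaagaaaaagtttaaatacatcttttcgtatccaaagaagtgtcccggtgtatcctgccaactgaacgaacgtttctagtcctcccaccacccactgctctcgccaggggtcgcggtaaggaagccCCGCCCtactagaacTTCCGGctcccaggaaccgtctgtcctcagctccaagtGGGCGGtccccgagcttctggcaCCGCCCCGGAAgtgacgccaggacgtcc
Windows of this kind were at hand for 45 of the 52 genes. The ETS core was found in 44.4% of these genes, in 23.2% of genes with a probe that passed the filter, and in 13.6% of all genes with a window. The GC box was found in 66.7%, 62.4% and 35.4%, and the CCAAT box (CCAAT) in 51.1%, 40.9% and 37.5%. A match of letters describes the window and is not a bound site.

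The other calls for age in wild type were of dim probes. Sf3b4, a subunit of SF3B that helps hold the U2 particle at the branch site, read 5.87, 5.56, 5.57 and 5.49 in young wild type and 4.94 to 5.50, median 5.30, in old wild type. The groups overlapped by the highest old array. It fell by 0.38 (SE 0.10, adjusted p 0.0208, limma), and the adjusted p was 0.100 without young wild type replicate 1, the highest young array. Prpf31, which holds the U4/U6 and U5 particles together, was detected on 0 of 4 young and 4 of 6 old wild type arrays. Its fitted difference was 0.24 (adjusted p 0.0384, limma), but with the young group below background only a rise of at least 1.02-fold could be given. That call was lost when any 1 of young wild type replicates 1, 2, 3 and 4 or old wild type replicates 2, 4 and 5 was left out, with adjusted p up to 0.112 in limma. Without old wild type replicate 6, Prpf3, a U4/U6 protein, was also called, at -0.21 (adjusted p 0.0374, limma) on probe ILMN_2740053.

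By family, the median difference with age in wild type was 0.04 over 30 hnRNP probes, 0.07 over 14 SR probes, 0.02 over 8 SF3 probes and 0.01 over both 21 PRPF probes and 7 Sm probes. It was -0.05 over 4 probes of U1 and U2 proteins and -0.01 over 2 U2AF probes. Both called probes of the SR family were those of Srsf5, and the 12 others lay between -0.23 and 0.18. Srsf1, a founding SR protein and a member of high signal, read 11.34 to 11.51 in young and 11.45 to 11.75 in old wild type on probe ILMN_2591814, without a call. Hnrnpc, which packages nascent transcripts, read 12.35 to 12.42 in young and 12.33 to 12.52 in old wild type on probe ILMN_1235470.

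**Figure D3:**
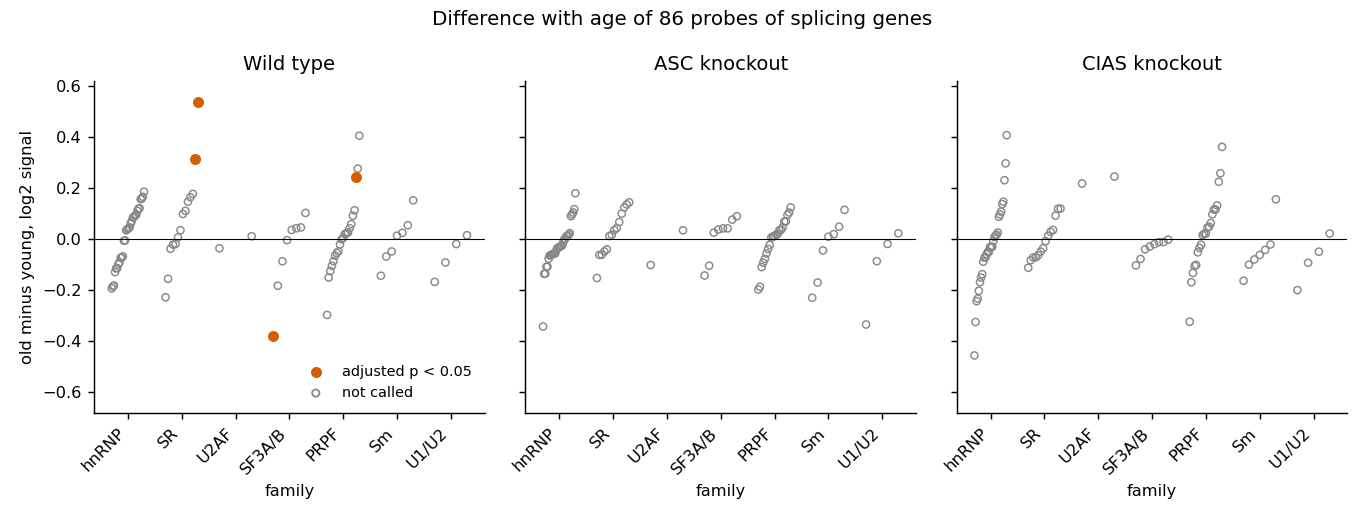
Difference with age (old minus young, log2 signal, y axis) of the 86 probes by family (x axis) in wild type, ASC -/- and CIAS -/- mice. Each point is a probe, sorted within its family, and filled points had an adjusted p under 0.05: 3 above and 1 below the line in wild type and 0 in either knockout.

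Further members of high signal or small p for the mean age effect were as follows. Hnrnpab, an hnRNP of the A/B class, read 12.04 to 12.47 over the wild type arrays of both ages, and Srsf2, an SR protein, read 11.14 to 11.45 on probe ILMN_2636335. Sf3b2, an SF3B subunit beside the branch site, read 10.97 to 11.22, and Prpf19, the ubiquitin ligase of the complex that activates the spliceosome, read 11.13 to 11.44 on probe ILMN_2934532. Snrpd2, of the Sm ring, read 10.80 to 10.89 in young and 10.64 to 10.76 in old wild type, which did not overlap, without a call (adjusted p 0.129, limma). Over the 3 genotypes, Srsf6, an SR protein, stood at 0.11 with age (SE 0.05, adjusted p 0.241, limma), and Snrpb, of the Sm ring, at 0.10 on probe ILMN_1239922 (SE 0.04, adjusted p 0.103, limma). Snrpd1, of the same ring, stood at -0.12 on probe ILMN_1225361 (SE 0.06, adjusted p 0.276, limma). Snrpa, the U1-A protein, stood at -0.05 on probe ILMN_2667509 and Snrpa1, the U2-A' protein, at 0.01.

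In the knockouts no splicing probe passed the test with age. In ASC -/- mice limma called 0 of 86 probes, against 0.264% of all probes, and 3 had an unadjusted p under 0.05, against 7.66% of all probes. In CIAS -/- mice it called 0, against 0.692% of all probes, and 13 had an unadjusted p under 0.05, against 12.2% of all probes. The smallest p in CIAS -/- was that of Hnrnph1, an hnRNP that binds runs of G, on probe ILMN_2684986. It read 7.22, 7.25 and 7.27 in young CIAS -/- and 6.76 to 7.02, median 6.94, in old CIAS -/-, so the groups did not overlap. The difference was -0.32 (SE 0.08) with an adjusted p of 0.0508 in limma, and of 0.00944 without old wild type replicate 6, which enters through the shared spread and normalization. Young and old did not overlap for 2 probes in ASC -/- (4.75% of all probes) and for 8 probes in CIAS -/- (6.91% of all probes). The latter included both U2AF members: U2af2, the large subunit that binds the polypyrimidine tract, at 0.25, and U2af1l4, related to the small subunit, at 0.22, with adjusted p of 0.345 and 0.357 in limma.

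The difference between the age effects of a knockout and of wild type was called for 0 of 86 probes by limma in both knockouts. The background was 0% for ASC -/- and 0.359% for CIAS -/-. At an unadjusted p under 0.05 there were 7 probes for ASC -/- and 15 for CIAS -/-, against 10.1% and 13.8% of all probes. These differences were less precise. The 95% interval lay within 1.5-fold for 76 and 70 of the 86 probes, against 76.8% and 74.6% of all probes.

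Averaged over the 3 genotypes, 2 probes fell with age and 0 rose, or 2.33%, against 5.52% of all probes (3.02% higher and 2.5% lower). Hnrnpa1, which binds exonic silencers, fell by 0.30 (SE 0.09, adjusted p 0.0311, limma) on the dim probe ILMN_3024068. Its group means ran from 5.59 to 5.48 in wild type, from 5.84 to 5.50 in ASC -/- and from 5.71 to 5.25 in CIAS -/-. Young and old arrays did not overlap in CIAS -/- alone. The brighter Hnrnpa1 probe, ILMN_3096701, stood at -0.02 (SE 0.05, adjusted p 0.857, limma), so the fall rests on the dim probe. The call was lost, with adjusted p up to 0.0994 in limma, without young wild type replicate 1, young ASC -/- replicate 1 or 2, or young CIAS -/- replicate 2 or 4.

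Snrpc, the U1-C protein that steadies U1 at the start of the intron, fell by 0.18 (SE 0.05, adjusted p 0.0236, limma) over the 3 genotypes. It read 6.22, 6.24, 6.19 and 6.18 in young and 5.92 to 6.31, median 6.00, in old wild type. It read 6.07, 6.45 and 6.52 in young ASC -/- against 5.93 to 6.06 in old, and 6.18, 6.15 and 6.14 in young CIAS -/- against 5.89 to 6.23 in old. The groups overlapped in wild type and CIAS -/- and not in ASC -/-. Its adjusted p rose to as much as 0.0765 in limma when young ASC -/- replicate 2 or 4 was left out. Snrpc also read 6.39, 6.41, 6.66 and 6.48 in young CASP11 -/-, above all 4 young wild type arrays, with an adjusted p of 0.0822 in limma. Without old wild type replicate 6, the Srsf5 probe ILMN_2772274 was also called over the 3 genotypes, at 0.23 (adjusted p 0.0290, limma).

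The comparison of old knockouts with old wild type asked whether the aged hippocampus differs when the inflammasome is incomplete. Splicing probes differed in both directions between old CIAS -/- and old wild type. Of the 86 probes, 4 were higher and 6 were lower, or 11.6%, against 7.92% of all probes (3.12% higher and 4.8% lower). These were 6 of 30 hnRNP probes, 3 of 21 PRPF probes and 1 of 14 SR probes. The count was 5 with 1 probe per gene and 4 in a fit of only the groups compared. The median difference was 0.01 over the 86 probes and 0.02 over all. Between old ASC -/- and old wild type, 1 probe was higher and 0 were lower, or 1.16%, against 3.82% of all probes (1.74% higher and 2.08% lower). Groups did not overlap for 3 probes in old CIAS -/- (2.96% of all probes) and for 2 in old ASC -/- (2.07%). Both comparisons share the 6 old wild type arrays, so their values are not independent of each other. Of the 10 calls for CIAS -/-, 5 were on the 26 probes with a mean log2 signal under 7.

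Among the probes that were higher, Hnrnpa3, an hnRNP of the A/B class (chr2:75659105-75669407), read 6.55 to 6.84, median 6.75, in old CIAS -/- and 6.05 to 6.40, median 6.37, in old wild type. The groups did not overlap. The difference was 0.41 (SE 0.10), or 1.33-fold, with an adjusted p of 0.0124 in limma, and it was 0.26 (adjusted p 0.145, limma) in old ASC -/-. Hnrnpu, a chromatin-bound hnRNP also called scaffold attachment factor A (chr1:178321108-178338891), read 5.39 to 5.65, median 5.59, in old CIAS -/- and 5.03 to 5.34, median 5.25, in old wild type, again without overlap. It was higher by 0.33 (SE 0.09, adjusted p 0.0164, limma). In old ASC -/- it read 5.25 to 5.70, with a difference of 0.29 (adjusted p 0.0525, limma). The calls of Hnrnpa3 and Hnrnpu for CIAS -/- held without any 1 array. That of Hnrnpa3 also held under all 10 other alternatives, and that of Hnrnpu under the 9 that kept its probe. The strict filter dropped the dim Hnrnpu probe, so its call was not tested there.

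Prpf39, a U1-associated protein, read 7.34 to 7.94, median 7.61, in old CIAS -/- and 7.20 to 7.43, median 7.29, in old wild type, with overlap. It was higher by 0.33 (SE 0.09, adjusted p 0.0237, limma), and the call was lost without old wild type replicate 2 or old CIAS -/- replicate 1 or 6 (adjusted p up to 0.0771, limma). The fourth was a probe of Hnrnpa2b1, described with the second probe of that gene below.

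Among the probes that were lower, Hnrnph1 (chr11:50375257-50386528) on probe ILMN_2684986 read 6.76 to 7.02, median 6.94, in old CIAS -/- and 7.04 to 7.52, median 7.17, in old wild type, without overlap. It fell by 0.28 (SE 0.07, adjusted p 0.00842, limma), and by 0.22 (adjusted p 0.0183, limma) without old wild type replicate 6, its highest array. The 4 other Hnrnph1 probes lay between -0.21 and -0.09, without a call. Hnrnpf, which binds runs of G as Hnrnph1 does, read 6.06 to 6.28, median 6.12, against 6.27 to 6.55, median 6.40, in old wild type. The groups overlapped at a single pair of arrays. It fell by 0.27 (SE 0.07, adjusted p 0.0218, limma), with an adjusted p of 0.0503 without old wild type replicate 5. Srsf5 on ILMN_2772274 fell by 0.36 (SE 0.10, adjusted p 0.0218, limma) from the old wild type values given above, with an adjusted p of 0.0527 without old wild type replicate 5. Its second probe stood at -0.12 (adjusted p 0.282, limma). In old ASC -/- the 2 Srsf5 probes stood at -0.23 and -0.11 (adjusted p 0.171 and 0.354, limma).

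**Figure D4:**
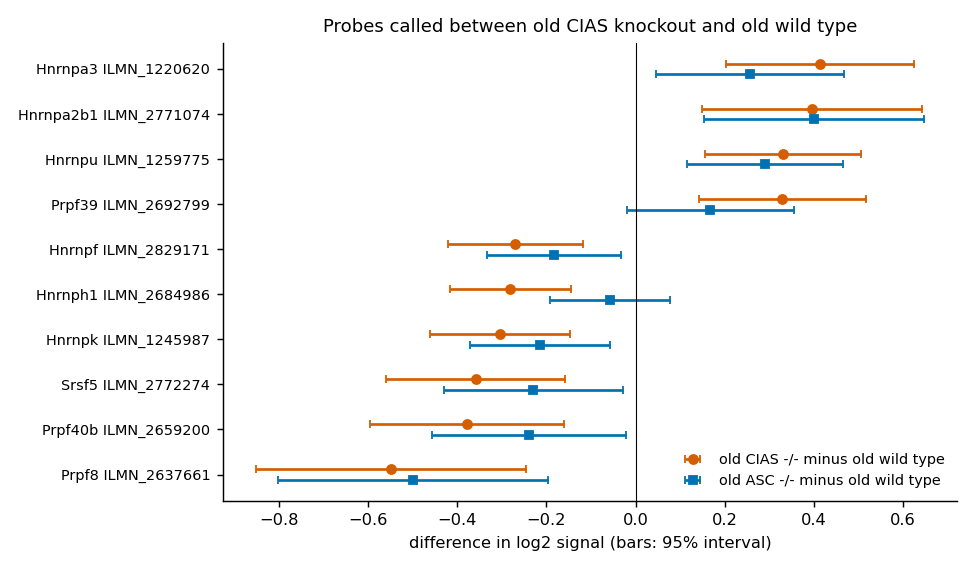
The 10 probes called between old CIAS -/- and old wild type. Circles give the difference in log2 signal for old CIAS -/- and squares that for old ASC -/-, both against the same 6 old wild type arrays, with 95% intervals as bars. The differences for CIAS -/- run from -0.55 for Prpf8 to 0.41 for Hnrnpa3.

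In old ASC -/- the called probe was Sf3b6, the SF3B subunit that touches the branch point adenosine. It read 5.77 to 6.53, median 6.05, in old ASC -/- and 5.53 to 5.90, median 5.75, in old wild type, so the groups overlapped. It was higher by 0.36 (SE 0.09, adjusted p 0.0328, limma). The call was lost, with adjusted p up to 0.103 in limma, without old wild type replicate 1 or 3 or old ASC -/- replicate 1, 4 or 5. The window before Sf3b6 (RefSeq, GRCm38.p6, chr12:4817358-4817607, plus strand) is shown for its several ETS cores and GC boxes, in capitals on either strand.
Sf3b6: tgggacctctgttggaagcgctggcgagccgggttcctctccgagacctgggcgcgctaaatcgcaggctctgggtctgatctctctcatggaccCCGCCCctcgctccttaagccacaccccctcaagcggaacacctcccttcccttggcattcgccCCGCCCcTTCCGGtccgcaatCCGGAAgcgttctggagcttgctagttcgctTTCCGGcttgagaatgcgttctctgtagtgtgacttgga

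Several genes carried more than 1 probe, and the probes need not match the same transcripts. Of the 52 genes, 14 had 2 probes, 8 had 3 or more and 30 had 1. To see where probes of a gene disagreed, each probe was set against the mean of the other probes of its gene on the same array, which gave 42 rows for splicing genes. Between old CIAS -/- and old wild type, 4 rows were called, against 10.6% of all rows. Between old ASC -/- and old wild type 1 row was called, against 4.25%, for age in wild type 1 row, against 1.49%, and between young CASP11 -/- and young wild type 2 rows, against 2.32%. The platform annotation gives different RefSeq transcripts for the 2 Hnrnpa2b1 probes. Within each of Prpf8, Hnrnpk, Prpf40b and Hnrnpdl it gives the same transcript for every probe. Which transcripts the probe sequences match was not analysed here.

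Hnrnpa2b1, which sorts and splices neuronal transcripts (chr6:51460434-51470048), was the gene with a called gap in both old knockouts. Its probe ILMN_2771074 read 6.67 to 7.42, median 7.01, in old wild type, 7.13 to 7.82, median 7.41, in old ASC -/- and 7.11 to 7.85, median 7.38, in old CIAS -/-. Its probe ILMN_2615855 went the other way, with 9.88 to 10.13, median 10.00, in old wild type, 9.24 to 9.88, median 9.85, in old ASC -/- and 9.49 to 9.92, median 9.80, in old CIAS -/-. The knockout arrays overlapped with wild type on each probe. For CIAS -/- the differences were 0.40 (SE 0.12, adjusted p 0.0391, limma) and -0.27 (SE 0.09, adjusted p 0.0532, limma). The gap between the probes changed by -0.66 in old CIAS -/- (SE 0.16, adjusted p 0.00633, limma) and by -0.66 in old ASC -/- (SE 0.16, adjusted p 0.0183, limma). For old ASC -/- no gap was called without old wild type replicate 1 or old ASC -/- replicate 4. The call of ILMN_2771074 for CIAS -/- was lost without old wild type replicate 1, 2, 3 or 5 or old CIAS -/- replicate 5 or 6 (adjusted p up to 0.108, limma). Without old wild type replicate 6 this probe was also called for old ASC -/-, at 0.48 (adjusted p 0.0224, limma).

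Prpf8, the largest protein of the catalytic centre, had a bright probe, ILMN_2612369, that read 9.61 to 9.88 in old wild type and 9.65 to 9.84 in old CIAS -/-, a difference of -0.002 (SE 0.0558). Its dim probe ILMN_2637661 read 5.50 to 6.09, median 5.80, in old wild type and 4.99 to 5.58, median 5.26, in old CIAS -/-. The dim probe fell by 0.55 (SE 0.15, adjusted p 0.0203, limma), and its call was lost without old CIAS -/- replicate 6 (adjusted p 0.0532, limma). The gap between both probes changed by 0.55 (SE 0.14, adjusted p 0.00934, limma). The window before Prpf8 (RefSeq, GRCm38.p6, chr11:75486527-75486776, plus strand), shown for comparison with the windows above, held CCAAT boxes, in capitals on either strand, and neither of the 2 other motifs.
Prpf8: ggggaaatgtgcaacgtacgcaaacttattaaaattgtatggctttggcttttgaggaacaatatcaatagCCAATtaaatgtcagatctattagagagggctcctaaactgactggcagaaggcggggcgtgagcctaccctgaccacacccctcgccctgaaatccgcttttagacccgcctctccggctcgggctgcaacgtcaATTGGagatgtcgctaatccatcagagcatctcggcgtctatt

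**Figure D5:**
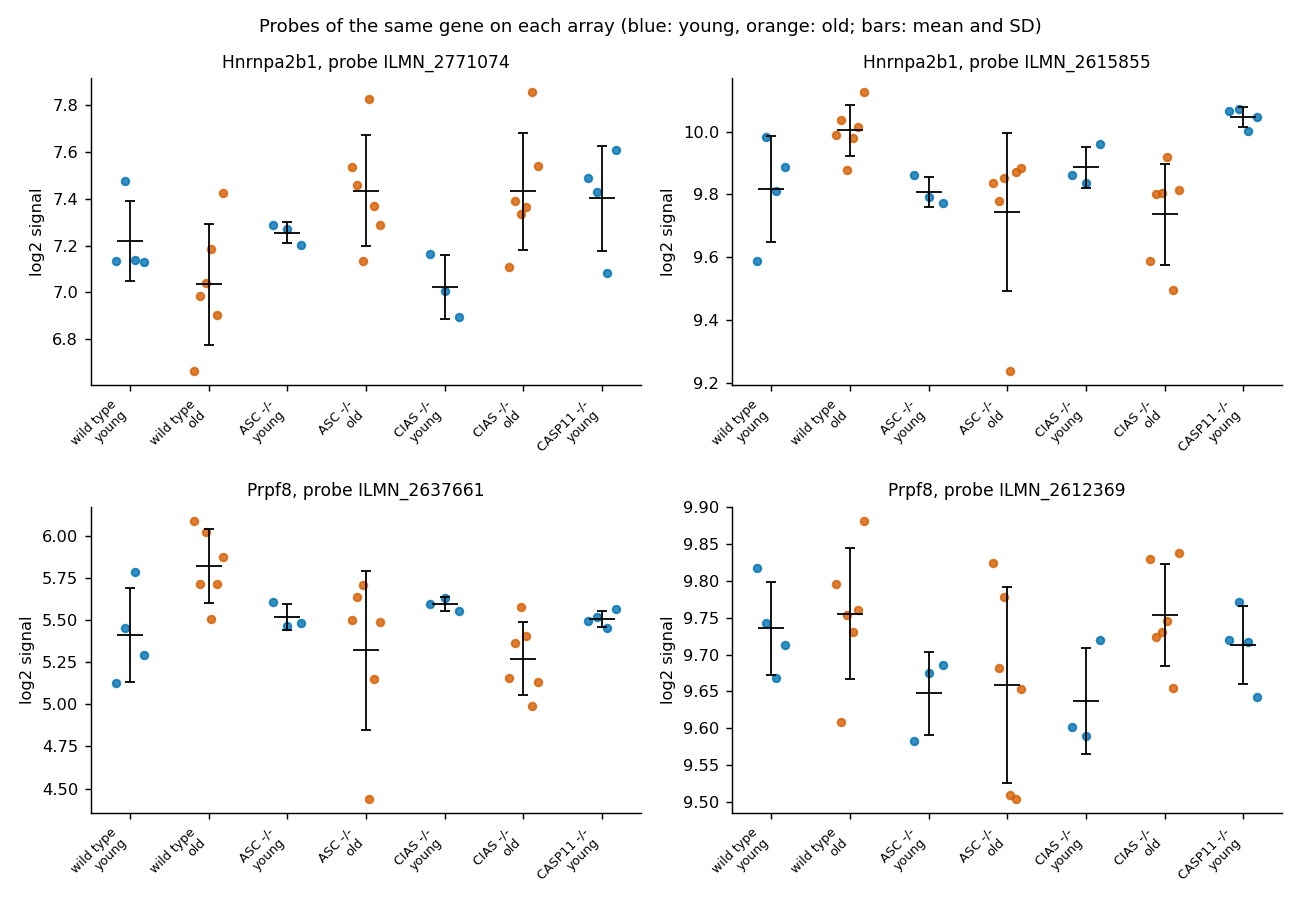
Log2 signal of the 2 probes of Hnrnpa2b1 (top) and of Prpf8 (bottom) on each of 32 arrays. Points are arrays, blue for young and orange for old, with group mean and SD as bars. In old CIAS -/- against old wild type the Hnrnpa2b1 probes differ by 0.40 and -0.27 and the Prpf8 probes by -0.55 and -0.002.

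Hnrnpk, which binds C-rich RNA, fell by 0.30 (SE 0.08, adjusted p 0.0133, limma) in old CIAS -/- on probe ILMN_1245987, from 8.98 to 9.24 in old wild type to 8.65 to 9.08. Its other probes stood at 0.21 and 0.06 (adjusted p 0.248 and 0.648, limma), and the gap to them changed by -0.44 (SE 0.10, adjusted p 0.00613, limma). Prpf40b, a U1-associated protein expressed in neurons, fell by 0.38 (SE 0.11, adjusted p 0.0258, limma) on ILMN_2659200, from 6.56 to 7.11 in old wild type to 6.12 to 6.86 in old CIAS -/-, with overlap. That call was lost without old wild type replicate 2, 3 or 4 or old CIAS -/- replicate 6 (adjusted p up to 0.0947, limma). The other Prpf40b probes stood at 0.14 and 0.07, and the gap changed by -0.48 (adjusted p 0.0140, limma), with an adjusted p of 0.0594 without old CIAS -/- replicate 6. With age in wild type, the gap of Prpf40b probe ILMN_1249348 to the others changed by -0.48 (SE 0.12, adjusted p 0.0427, limma). This call was lost, with adjusted p up to 0.131 in limma, without any 1 of young wild type replicates 1, 2 and 3, old wild type replicates 1, 2, 3 and 4, or young CIAS -/- replicate 2.

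Young knockouts were compared with young wild type to ask whether the genotypes differ before ageing. For ASC -/- limma called 0 of 86 probes, against 0.00678% of all probes, with 3 at an unadjusted p under 0.05 (4.5% of all probes). For CIAS -/- it called 0, against 0% of all probes, with 7 at an unadjusted p under 0.05 (7.81% of all probes). For CASP11 -/- 2 probes were higher and 0 lower, or 2.33%, against 2.63% of all probes (0.773% higher and 1.86% lower), and 20 had an unadjusted p under 0.05 (15.3% of all probes). Of the 86 differences for CASP11 -/-, 57 were positive, with a median of 0.06 against 0.01 over all probes. All 3 comparisons share the 4 young wild type arrays. Groups did not overlap for 5 probes in ASC -/- (6.12% of all probes), 5 in CIAS -/- (9.81%) and 12 in CASP11 -/- (13.3%).

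Sf3b1, the subunit that clamps the branch site (chr1:54985169-55027501), read 5.20, 5.38, 5.15 and 5.58 in young wild type and 5.87, 5.77, 5.71 and 5.47 in young CASP11 -/-. It was higher by 0.38 (SE 0.09, adjusted p 0.0218, limma), and the groups overlapped by the lowest CASP11 -/- array. It read 5.60, 5.76 and 5.72 in young ASC -/- and 5.65, 5.70 and 5.62 in young CIAS -/-, with differences of 0.37 and 0.33 (adjusted p 0.489 and 0.288, limma). Its old arrays lay at 5.23 to 5.67 in wild type, 5.48 to 5.72 in ASC -/- and 5.40 to 5.60 in CIAS -/-. The CASP11 -/- call was lost without young wild type replicate 1 or 3 or young CASP11 -/- replicate 1, 2 or 3 (adjusted p up to 0.101, limma).

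Hnrnpdl, an hnRNP that binds AU-rich RNA (chr5:100033577-100039936), read 9.47, 9.48, 9.33 and 9.82 in young wild type and 9.89, 10.23, 10.01 and 10.10 in young CASP11 -/- on probe ILMN_2903440, without overlap. It was higher by 0.53 (SE 0.14, adjusted p 0.0366, limma), or 1.45-fold. Its second probe, ILMN_2690061, read 10.75 to 11.12 and 10.76 to 11.04, a difference of -0.01, and the gap between the probes changed by -0.54 (SE 0.13, adjusted p 0.0161, limma). The call was lost without young wild type replicate 1, 2 or 3 or young CASP11 -/- replicate 2, 3 or 4 (adjusted p up to 0.127, limma). The other gap called in CASP11 -/- was that of Prpf40b probe ILMN_2810331, at 0.48 (adjusted p 0.0426, limma). The Hnrnpdl gap was lost without young wild type replicate 3 or young CASP11 -/- replicate 2 or 4 (adjusted p up to 0.086, limma). The Prpf40b gap was lost without young wild type replicate 1, 3 or 4, any 1 of the 4 young CASP11 -/- arrays, old ASC -/- replicate 3 or old CIAS -/- replicate 4 (adjusted p up to 0.181, limma). Without old wild type replicate 6, Snrpd1, a protein of the Sm ring, was also called in CASP11 -/- on probe ILMN_2610105, at 0.40 (adjusted p 0.0395, limma).

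Genes of splicing outside the symbol rule were counted in 5 lists: RNA-binding regulators of neurons and muscle, SR-related factors, SR protein kinases, other small nuclear ribonucleoprotein and LSm proteins, and Prp19 complex and step factors. For each gene only the probe with the highest mean signal was used, while the shares beside the counts cover all probes that passed the filter. Counts and shares are thus not of like probes. Of 104 such genes measured, 2 rose and 3 fell with age in wild type, where 5.25% of all probes were called. Snrnp70, the U1-70K protein, rose by 0.58 (SE 0.11, adjusted p 0.00156, limma) and Luc7l2, a U1-associated factor, by 0.64 (SE 0.15, adjusted p 0.0121, limma). Tia1, an RNA-binding protein that aids U1 at weak introns, fell by 0.42, Dyrk1a, a kinase, by 0.38 and Bud31, of the activated spliceosome, by 0.28. Limma called 0 of the 104 with age in ASC -/- or in CIAS -/-. Over the 3 genotypes 0 rose and 3 fell, against 5.52% of all probes, among them Tia1 (adjusted p 0.000446, limma).

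Between old CIAS -/- and old wild type 2 of the 104 were higher and 2 lower, where 7.92% of all probes were called. Khdrbs3, a neuronal splicing regulator also called SLM2, was higher by 1.22 (SE 0.16, adjusted p 1.89e-05, limma), more than any probe of the members in that comparison. Celf1, a regulator that binds GU-rich RNA, fell by 0.53 (adjusted p 0.0106, limma). Between old ASC -/- and old wild type 0 were higher and 1 lower, against 3.82% of all probes. Between young CASP11 -/- and young wild type 3 were higher and 0 lower, against 2.63% of all probes, among them Luc7l2 at 0.83 (adjusted p 0.00349, limma) and Rbmx, an hnRNP by another name, at 0.59 (adjusted p 0.00363, limma). Apart from Tia1, Dyrk1a, Snrnp70 and Bud31, the genes of these lists are named after their values were seen.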

How the data were processed

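Total RNA of 32 hippocampus samples was biotin-labelled and read on Illumina arrays. Per the file headers, the deposited table holds an average signal intensity for each of 25697 probes and a detection p-value beside it. Background had not been subtracted by the authors, as the lowest deposited intensity was 27. The submitters' processing notes name GenomeStudio, with no version stated. Another deposited table holds normalized intensity values. No source used here states how the authors made it, and it kept the rank order of the signals within each array. It was used as an alternative, floored at 16.

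In R 4.3.3, limma 3.58.1 applied neqc (normexp with controls inferred from the detection p-values, offset 16, quantile normalization, log2). Probes detected at p under 0.05 on at least 3 arrays were kept. One fit of 7 group means over all arrays, with 25 residual and 4.383 prior degrees of freedom, gave 11 comparisons. The 2-sided p-values were adjusted by Benjamini-Hochberg across the 14745 probes, with calls at adjusted p under 0.05. Gaps between probes of a gene were fitted in the same way over 4354 rows. The script was tested on simulated data.

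The members, the lists of other splicing genes and the 13 marker lists were chosen with earlier results of these data known. Genes named are those called in any comparison, in each family those with the smallest p for the mean age effect or the highest mean signal, and genes whose probes differed. Groups came from titles and genotype labels. Alternatives were an offset of 50, quantile normalization with no background step, the deposited values, no filter and a strict filter (detection p under 0.01), the replicate number as a block, array weights, Eif2s3y as a covariate, 1 probe per gene, only the groups compared, and each array left out. Gene names come from the platform annotation. All 52 symbols were found in the RefSeq GRCm38.p6 gene table. The number of arrays limits the precision, and slide and scan date are not used here.

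Replicate numbers did not pair samples: residuals of arrays with the same number in other groups correlated between -0.248 and 0.365, with a mean of 0.00559 over 79 pairs.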

Additional observations from a re-analysis of the deposited data

Results flagged for a closer look

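Within groups of 4 to 6 arrays, a single array stood far from the others in 8 of 125 pairs of a probe and a group, over 25 probes looked at. By chance about 1 in 20 such pairs would be picked out. Old ASC -/- replicate 4 was the array in 3 of them. On it Hnrnpa2b1 probe ILMN_2615855 read 9.24, against 9.78 to 9.88 on the other old ASC -/- arrays. Hnrnpk probe ILMN_1245987 read 8.66, against 8.94 to 9.02, and Sf3b1 read 5.72, against 5.48 to 5.56. In old CIAS -/- mice, Sf3b1 read 5.40 on replicate 4, against 5.55 to 5.60 on the others.

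In old wild type, Hnrnph1 probe ILMN_2684986 read 7.52 on replicate 6, the array with high striatal markers, against 7.04 to 7.22. Hnrnpa3 read 6.05 on old wild type replicate 1, against 6.27 to 6.40. In young wild type, Hnrnpa2b1 probe ILMN_2771074 read 7.47 on replicate 2, against 7.13 to 7.14. In young CASP11 -/- mice, Hnrnpf read 6.51 on replicate 4, against 6.32 to 6.35.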

How the results depend on the processing

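Of 19 calls of a splicing probe in a comparison, 5 held with any 1 array left out, 5 held under all other alternatives run, and 3 held under both: Srsf5 (ILMN_2772274) for age in wild type, and Hnrnpa3 and Hnrnpu between old CIAS -/- and old wild type. An alternative that dropped a probe was not counted for that probe. The strict filter dropped Hnrnpu, and the fit with 1 probe per gene dropped Srsf5 probe ILMN_2772274. None of these 19 calls changed direction under the alternatives run; the direction of values without a call was not followed. For age in wild type, the count of 4 became 2 under the strict filter and 1 in a fit of only the groups compared. For age in ASC -/- the count of 0 became 1 with array weights. In CIAS -/- it became 1 under the strict filter and 2 with array weights. For the mean age effect the count of 2 became 1 without a filter, under the strict filter and with 1 probe per gene, and 7 with array weights. The difference of age effects between CIAS -/- and wild type gave 2 with array weights. Between old ASC -/- and old wild type the count of 1 became 2 with the offset of 50 and the deposited values, and 0 without a filter and in a fit of only the groups compared. Between old CIAS -/- and old wild type the count of 10 became 5 with 1 probe per gene and 4 in a fit of only the groups compared. Between young CASP11 -/- and young wild type the count of 2 became 1 without a filter and with 1 probe per gene, and 4 with array weights. With the replicate number as a block, the mean age effect gave 1, old ASC -/- against old wild type gave 2 and the gaps between probes with age gave 0, and no other count moved by more than 1.5 times. The causes of these shifts were not tested.

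With each array left out in turn, the counts ranged from 2 to 5 for age in wild type, 0 to 1 for age in ASC -/- and in CIAS -/-, 0 to 3 for the mean age effect, 0 to 0 and 0 to 2 for the differences of age effects in ASC -/- and CIAS -/-, 0 to 3 for old ASC -/-, 6 to 11 for old CIAS -/-, 0 to 0 for both young ASC -/- and young CIAS -/-, and 0 to 4 for young CASP11 -/-, with 0 without young wild type replicate 1 or 3 or young CASP11 -/- replicate 2 or 3. The lowest count for old CIAS -/- came without old CIAS -/- replicate 6.

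For the gaps between probes of a gene, alternatives for the knockout comparisons were chosen after seeing the data. With age in wild type the count of 1 became 0 with the deposited values and with the Eif2s3y covariate. For old ASC -/- the count of 1 became 2 with the offset of 50, with quantile normalization alone, without a filter and under the strict filter. For old CIAS -/- the count of 4 became 7 with array weights, and for young CASP11 -/- the count of 2 became 1 with the offset of 50 and without a filter. With each array left out, the ranges were 0 to 1, 0 to 4, 3 to 8 and 0 to 3, with 8 for old CIAS -/- without old wild type replicate 6. The precision of dim probes near background is limited, and the size of their differences depends on the processing. For old CIAS -/- the Prpf8 gap, which includes a dim probe, changed by 0.55 in the main fit. It changed by 0.32 with the offset of 50 and by 0.85 with the deposited values.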
